A study of Mus musculus with 6 samples.

Results

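The 10 genes described here encode chains of the interferon receptors and the kinases, transcription factor and inhibitors that work directly beneath them. They are Ifngr1, Ifngr2, Ifnlr1, Il10rb, Ifnar1, Jak1, Jak2, Irf1, Socs1 and Socs3. They were chosen by name, with the Ensembl identifiers of the deposited tables matched to gene symbols. All 10 were found among the 51912 genes listed, and all 10 were among the 13644 that passed the filter on low counts. The RNA came from epithelial cells sorted out of the small intestine of C57BL/6 mice, in 3 groups of 2 libraries. Antigen free (AF) mice had foreign antigens neither from a microbiota nor from food (replicates 2 and 3). Germ free (GF) mice carried no microbiota (replicates 1 and 3), and specific pathogen free (SPF) mice were kept clear of particular pathogens (replicates 3 and 4). The labels name no allele, transgene or drug in any group, and give neither age, sex nor diet. Whether each library stands for its own animal is not stated, so a p-value measures the spread between the samples at hand, which may be technical.

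Interferon gamma binds a receptor built from Ifngr1, which holds the ligand, and Ifngr2, which completes the signalling complex. The kinases Jak1 and Jak2 sit on their tails, and signalling from them leads to binding at palindromic DNA sites named gamma-activated sites (GAS) and to induction of Irf1, a transcription factor for genes of antigen presentation and antiviral defence. Type I interferons signal through Ifnar1 and Ifnar2, and the type III or lambda interferons, to which the intestinal epithelium is known to respond strongly, through Ifnlr1 and Il10rb. Il10rb is also a chain of the receptors for IL-10 and IL-22. Both of these routes use Jak1 and Tyk2 and form ISGF3, a complex that holds Stat2 and Irf9. Socs1 and Socs3 are induced by the cytokines that they restrain. Socs1 is the main brake on JAK kinases beneath interferon receptors, and Socs3 acts chiefly on receptors that use the gp130 chain and Stat3.

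The promoters of Irf1, Socs1 and Socs3, the genes of the set that act as readouts of the pathway, are shown 5′ to 3′ on the sense strand of each gene, because they carry the letters that STAT and IRF factors are known to bind. Capitals mark matches to TTCNNNGAA, the GAS letters, which read the same on either strand, or to GAAA repeated after a gap of 2 bases, an IRF-type motif searched on both strands. The windows are from the RefSeq promoter table of GRCm38.p6: chr11:53769764-53770013 on the plus strand for Irf1, chr16:10785537-10785786 on the minus strand for Socs1, and chr11:117969502-117969531 on the minus strand for Socs3. For Socs3 a stretch of 30 bases around the match is shown, since the window before its RefSeq start touches an annotated exon, and the stretch lies inside the annotated span of the gene.
Irf1: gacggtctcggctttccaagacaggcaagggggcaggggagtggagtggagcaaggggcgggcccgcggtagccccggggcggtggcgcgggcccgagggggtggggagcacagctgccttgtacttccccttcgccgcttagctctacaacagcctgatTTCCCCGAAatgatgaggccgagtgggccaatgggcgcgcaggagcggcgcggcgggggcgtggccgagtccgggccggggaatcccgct
Socs1: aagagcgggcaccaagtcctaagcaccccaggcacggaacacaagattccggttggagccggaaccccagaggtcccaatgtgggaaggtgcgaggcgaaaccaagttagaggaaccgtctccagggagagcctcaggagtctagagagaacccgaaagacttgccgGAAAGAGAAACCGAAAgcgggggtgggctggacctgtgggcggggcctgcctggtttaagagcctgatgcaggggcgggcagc
Socs3: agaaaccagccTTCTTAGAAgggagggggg
The match of Irf1 was TTCCCCGAA at 90 to 82 bases before the RefSeq start site, and that of Socs3 was TTCTTAGAA at 154 to 146 bases before it. In Socs1 the 2 overlapping matches, GAAAGAGAAA and GAAACCGAAA, began 83 and 77 bases before the start. Ifnar1 held the third GAS match, TTCACGGAA, across its start site. TTCNNNGAA occurred in 8.3% of the 32851 promoters of the table and the GAAA repeat in 3.44%, counting each window from 250 bases before the start to 50 after it. The table has a promoter for 9 of the 10 genes, all but Il10rb, and 2 for Irf1, of which the one at the annotated start of the gene is shown. A match is a run of letters and not a measured binding site.

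Several of the receptor genes are neighbours. On chromosome 16, plus strand of GRCm38, Ifnar2 is followed by Il10rb (ENSMUSG00000022969, 91406164 to 91425834), Ifnar1 (ENSMUSG00000022967, 91485238 to 91507441) and Ifngr2 (ENSMUSG00000022965, 91547072 to 91565623), all within 192841 bases. The gap is 574 bases between Ifnar2 and Il10rb, 59403 between Il10rb and Ifnar1, and 39630 between Ifnar1 and Ifngr2. Ifnlr1 (ENSMUSG00000062157, chromosome 4, 135686287 to 135708181) lies 19990 bases from Il22ra1, the specific chain of the IL-22 receptor. Ifngr1 (ENSMUSG00000020009) is on chromosome 10, 19591949 to 19610229. Jak1 (ENSMUSG00000028530) is on chromosome 4, 101152367 to 101265282, and Jak2 (ENSMUSG00000024789) on chromosome 19, 29251828 to 29313080. Irf1 (ENSMUSG00000018899) spans 53770014 to 53778374 and Socs3 (ENSMUSG00000053113) 117966079 to 117970047 on chromosome 11, and Socs1 (ENSMUSG00000038037) spans 10782240 to 10785536 on chromosome 16. Il10rb shares 569 exon bases with the read-through gene Gm21970 on its own strand, and Irf1 shares 135 with Gm17334 on the opposite strand. The deposited posterior standard deviation was at most 0.426% of the count for Il10rb and 0.00368% for Irf1, under a strand setting that is not given.

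Library totals ran between 16109488 and 19417054 expected counts. Levels of a gene across groups are given as CPM, the count scaled to a common total that is corrected for library make-up, with 1 count standing for 0.0365 to 0.0785 CPM. The epithelial markers Epcam (574 to 750 CPM), Vil1 (1846 to 3646 CPM) and Krt8 (2312 to 2613 CPM) were high in all 6 libraries. Libraries of a group differed in make-up: the summed level of 15 T cell and intraepithelial lymphocyte markers was 25.2 and 16.7 CPM in AF, 44.0 and 409.7 CPM in GF, and 254 and 95.7 CPM in SPF. Summed Paneth cell markers were at 43.6 CPM in SPF replicate 4 and at 1005 to 5852 CPM in the 5 others, and summed enterocyte markers were highest in SPF replicate 4 (57292 CPM, against 20287 to 32134 CPM in the others). The Y-linked gene Eif2s3y had 309 and 349 counts in AF, 654 and 331 in GF, and 0 in both SPF libraries. Xist, transcribed from the inactive X chromosome of female cells, had 0 and 3 counts in AF, 3 and 218 in GF, and 2831 and 1408 in SPF, so that GF replicate 3 held both transcripts. Sex and group cannot be told apart in the comparisons with SPF. The tables of each group also carry a date-like mark of their own, whose meaning is not given, so a batch that it may stand for cannot be told apart from the group either.

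All 10 genes were present in every library, and their order by level per length was much the same in the 3 groups. On the TPM scale, which divides by transcript length and so allows genes to be compared, Irf1 was highest in each group, at 57.6 ± 2.08 TPM in AF, 79.5 ± 11.6 TPM in GF and 127 ± 10.5 TPM in SPF (mean ± SD, n = 2 libraries each, as below). Socs1 was lowest, at 1.68 ± 0.608 TPM in AF, 3.06 ± 0.841 TPM in GF and 3.98 ± 0.672 TPM in SPF. Ifnlr1, the chain specific to lambda interferons, was next above it at 3.64 ± 0.566 TPM in AF, 4.59 ± 0.955 TPM in GF and 6.70 ± 0.721 TPM in SPF. In AF the order was Irf1, Ifngr2, Ifngr1, Il10rb, Jak2, Socs3, Jak1, Ifnar1, Ifnlr1 and Socs1. Of neighbours in it, Ifngr2 and Ifngr1, Jak2 and Socs3, and Socs3 and Jak1 overlapped between their 2 libraries. In GF the first 4, Irf1, Ifngr1, Ifngr2 and Il10rb, overlapped with their neighbours, and so did Socs3, Jak2 and Jak1 after them. In SPF the order was Irf1, Ifngr2, Ifngr1, Socs3, Il10rb, Jak2, Jak1, Ifnar1, Ifnlr1 and Socs1, and only the 4 genes from Ifngr2 to Il10rb overlapped with a neighbour. TPM values have no correction for the make-up of a library, and in limma's fit of log2(TPM + 1) the median of all genes was itself -0.36 for AF over GF and -0.31 for AF over SPF. TPM is therefore used for levels between genes, and CPM for differences between groups.

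**Figure D1:**
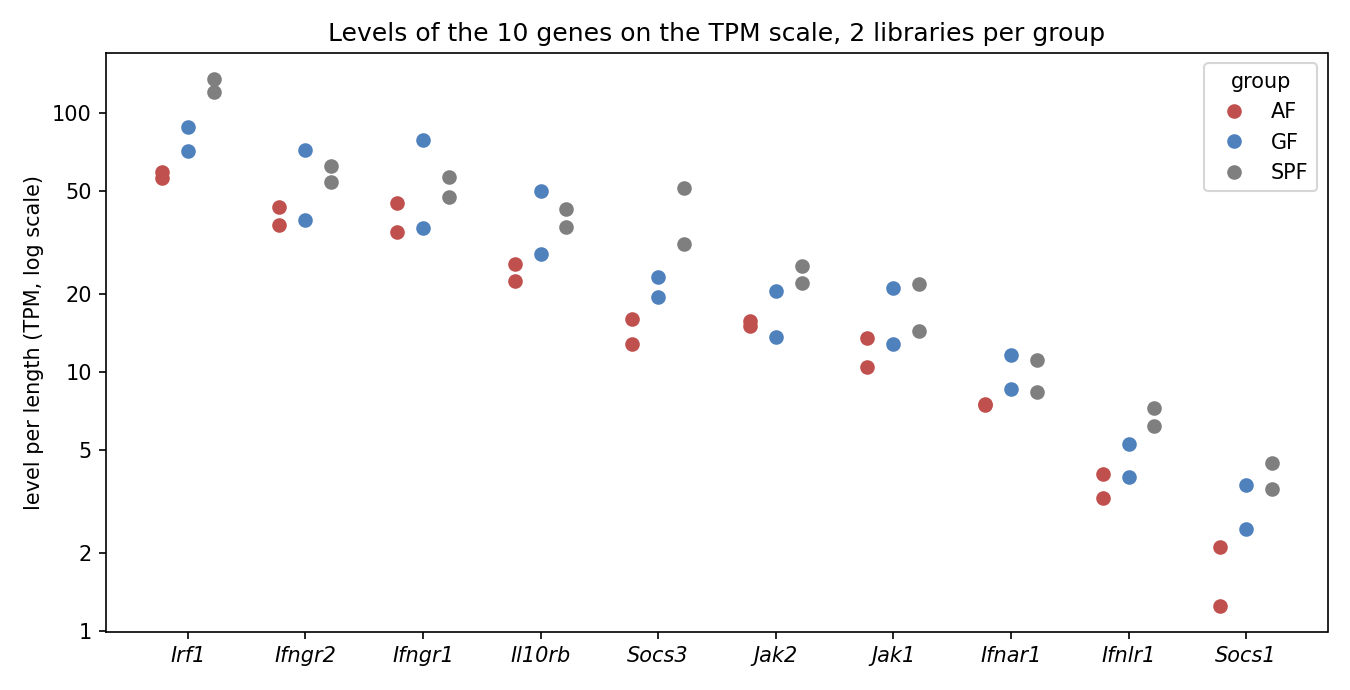
Level per length of each of the 10 genes (TPM, log axis) in the 2 libraries of AF, GF and SPF mice, genes ordered by mean level over the 6 libraries. Irf1 stood highest, between 56.1 and 134 TPM, and Socs1 lowest, between 1.25 and 4.46 TPM.

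Partner chains kept characteristic ratios on the TPM scale. Ifngr1 stood at 0.940 and 1.04 times the level of Ifngr2 in AF, 1.09 and 0.933 times in GF, and 0.908 and 0.876 times in SPF, so the transcripts of the interferon gamma receptor chains were close to balance in every library. Ifnlr1 stood at 0.180 and 0.124 times the level of its partner Il10rb in AF, 0.106 and 0.138 times in GF, and 0.145 and 0.199 times in SPF. The specific chain of the lambda receptor was thus the scarcer transcript of the pair in all 6 libraries. Jak2 and Jak1 were near parity in 4 libraries, at 0.979 to 1.11, and Jak2 was higher in AF replicate 2 (1.49) and SPF replicate 4 (1.79). Socs3 exceeded Socs1 by 5.29 to 11.5 times over the 6 libraries.

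Between groups, Ifngr1, Ifnar1 and Jak1 lay close together, while Irf1 and Socs3 were lower in AF and in GF than in SPF in every library. None of the 10 genes passed edgeR's quasi-likelihood test with p-values adjusted over all 13644 genes. The count was 0 of 10 in GF versus SPF and in AF versus GF, where 0.0147% of all genes passed in each, 0 of 10 in AF versus SPF (0.044% of all genes), and 0 of 10 for any difference among the 3 groups (0.0293%). DESeq2, edgeR's likelihood ratio test and limma on log2(TPM + 1) also called 0 in each. At an unadjusted p below 0.05 only Socs3 stood out, in GF versus SPF (6.71% of all genes), AF versus SPF (11.3%) and the test for any difference (7.33%), and no member did in AF versus GF (3.6%). The log2 fold change was below 0 for 9 of 10 genes in GF versus SPF, against 48.1% of all genes, and for 10 of 10 in AF versus SPF, against 49.1%. In AF versus GF it was below 0 for 6 of 10, against 52.9%. The median over the 10 genes was -0.28 in GF versus SPF, -0.035 in AF versus GF and -0.33 in AF versus SPF, and over all tested genes it was 0.022, -0.023 and 0.011. Of 10 enterocyte markers, 9 were likewise lower in GF than in SPF (median -0.66) and 9 lower in AF than in SPF (median -0.64), with 5 lower in AF than in GF (median -0.084), and their part in the members' values was not tested. The same SPF libraries serve both comparisons with SPF, and the GF libraries 2 of the 3. The 10 genes share libraries, so their fold changes are not independent.

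**Figure D2:**
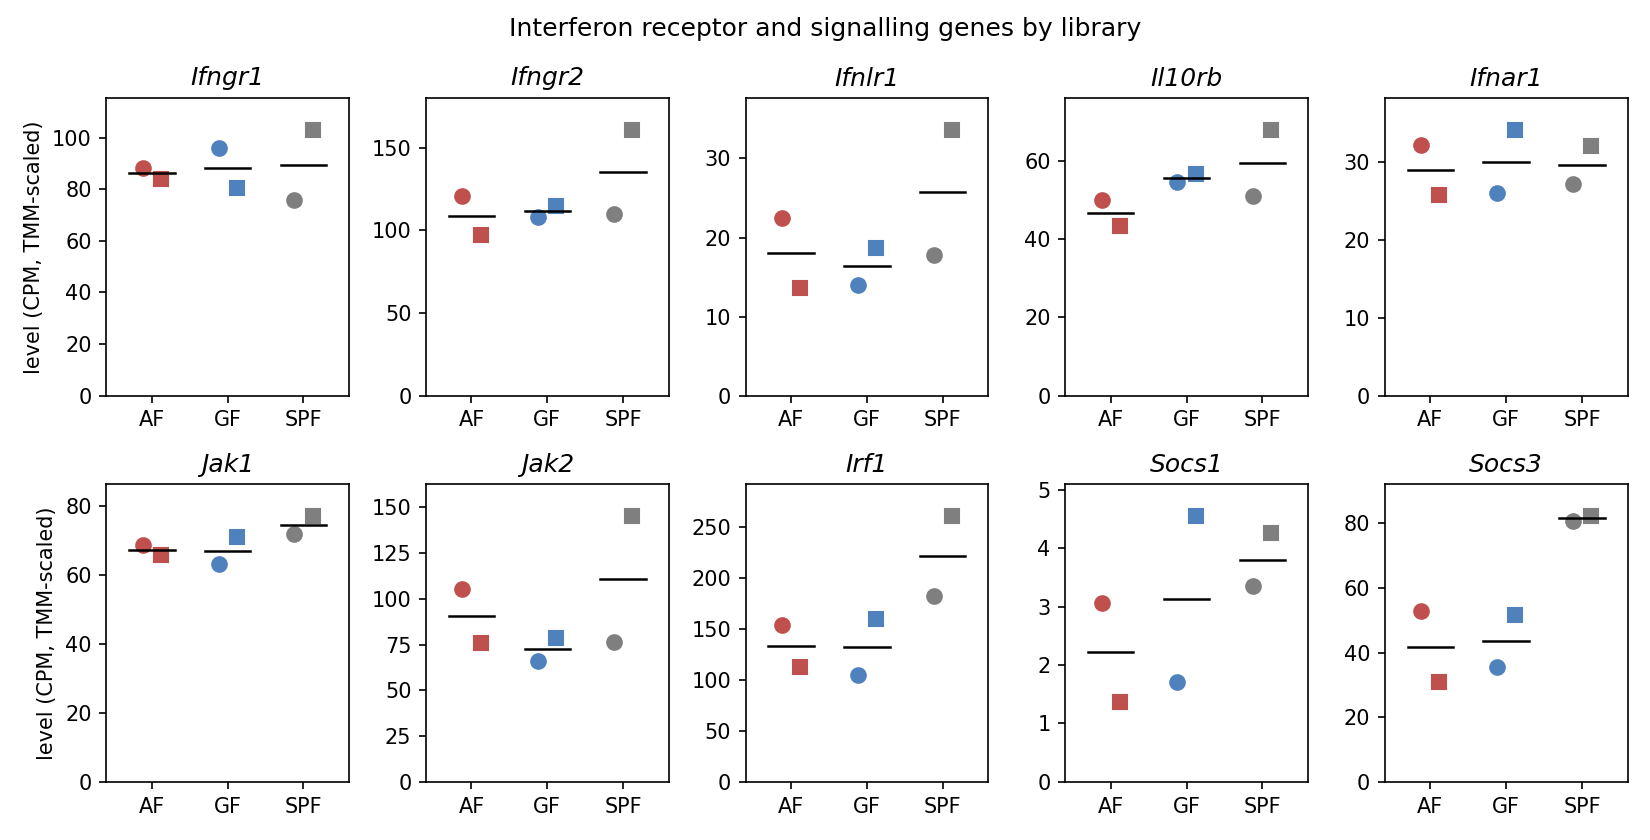
Level of each gene in CPM on scaled totals, 1 panel per gene with its own axis from 0, for AF, GF and SPF libraries. A circle is the library with the lower replicate number, a square the other, and a line the group mean. Socs3 and Irf1 were higher in both SPF libraries (80.8 and 82.2 CPM, 182 and 261 CPM) than in any of the 4 others.

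Of the interferon gamma receptor, Ifngr1 had 88.4 and 84.0 CPM in AF, 96.0 and 80.6 CPM in GF, and 75.8 and 103 CPM in SPF. The groups overlapped, and the SPF libraries held both the lowest and the highest value. Its log2 fold change was -0.052 (95% interval -0.64 to 0.54) for AF over SPF and -0.017 (-0.61 to 0.57) for GF over SPF. Ifngr2 had 121 and 97.3 CPM in AF, 108 and 115 CPM in GF, and 109.7 and 161 CPM in SPF. Here SPF replicate 4 stood above the rest and SPF replicate 3 among them. Its log2 fold change was -0.31 (-0.98 to 0.36) for AF over SPF, -0.28 (-0.95 to 0.39) for GF over SPF and -0.036 (-0.71 to 0.64) for AF over GF.

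The lambda receptor showed more spread. Ifnlr1 had 22.5 and 13.6 CPM in AF, 14.0 and 18.7 CPM in GF, and 17.8 and 33.6 CPM in SPF, on 229 to 490 counts per library. SPF replicate 4, which was also the highest in summed enterocyte markers, was the highest library, and the other 5 overlapped. The log2 fold change was -0.65 (SE 0.40) for GF over SPF and -0.51 (SE 0.40) for AF over SPF, with edgeR adjusted p = 0.770 and 0.669. Without SPF replicate 4, AF over SPF was 0.0084. Il10rb had 49.9 and 43.3 CPM in AF, 54.6 and 56.7 CPM in GF, and 51.0 and 67.9 CPM in SPF. Both AF libraries lay below the 4 others, and GF and SPF overlapped. Its log2 fold change was -0.26 (SE 0.22) for AF over GF and -0.35 (SE 0.22) for AF over SPF, with edgeR adjusted p = 1.00 and 0.587.

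Ifnar1, of the type I receptor, had 32.2 and 25.8 CPM in AF, 26.0 and 34.2 CPM in GF, and 27.2 and 32.2 CPM in SPF. Its groups overlapped fully, and its changes, like those of Ifngr1, were small against their intervals. On the log2 scale it changed by -0.052 for AF over GF (95% interval -0.61 to 0.51), 0.019 for GF over SPF (-0.54 to 0.58) and -0.034 for AF over SPF (-0.59 to 0.53). Its partner Ifnar2, from the pathway list, likewise overlapped between groups, at 13.2 and 7.96 CPM in AF, 9.30 and 12.8 CPM in GF, and 7.88 and 14.1 CPM in SPF.

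Of the kinases, Jak1, used by all 3 interferon receptors, had 68.7 and 65.8 CPM in AF, 63.0 and 70.8 CPM in GF, and 71.8 and 77.0 CPM in SPF. It had the narrowest range of the 10 genes, the highest library being 1.22 times the lowest, yet both SPF libraries lay above the other 4. On the log2 scale the change was -0.14 (95% interval -0.61 to 0.32) for AF over SPF and -0.15 (-0.62 to 0.31) for GF over SPF. Jak2, the partner kinase on Ifngr2, had 105 and 75.9 CPM in AF, 66.2 and 78.8 CPM in GF, and 76.6 and 145 CPM in SPF. SPF replicate 4 and AF replicate 2 were high and the 4 others lay within 66.2 to 78.8 CPM. Its log2 fold change was 0.32 (SE 0.36) for AF over GF, -0.61 (SE 0.36) for GF over SPF and -0.29 (SE 0.36) for AF over SPF. Without SPF replicate 4, AF over SPF was 0.24.

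Irf1 had 154 and 112 CPM in AF, 105 and 159.6 CPM in GF, and 182 and 261 CPM in SPF. Both SPF libraries were above the 4 others, and AF and GF overlapped almost completely. The log2 fold change was -0.73 (SE 0.34) for AF over SPF, a fold of 0.602, and -0.74 (SE 0.34) for GF over SPF, a fold of 0.599, with edgeR adjusted p = 0.483 and 0.738. For AF over GF it was 0.0095 (95% interval -0.82 to 0.84). Leaving out 1 library at a time, it lay between -0.98 and -0.45 for AF over SPF and between -1.08 and -0.46 for GF over SPF. In bulk samples fewer cells that express a gene and less RNA per cell cannot be told apart. Summed enterocyte markers (10 of 10 detected in each library) were highest in SPF replicate 4, the library highest in Irf1. They were lowest in GF replicate 1 and AF replicate 3, the libraries lowest in Irf1. SPF replicate 3 had more Irf1 than GF replicate 3 and AF replicate 2 but a lower marker sum (27298 against 32134 and 27482 CPM). The part of these markers in the result was not tested.

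Socs3 showed the clearest separation. It had 52.9 and 30.8 CPM in AF, 35.4 and 51.7 CPM in GF, and 80.8 and 82.2 CPM in SPF. The SPF libraries were close to each other and above the 4 others, and AF and GF overlapped. The log2 fold change was -0.96 (SE 0.32, 95% interval -1.75 to -0.17) for AF over SPF, a fold of 0.513, and -0.90 (SE 0.32, -1.69 to -0.12) for GF over SPF, a fold of 0.534. The edgeR adjusted p was 0.391 and 0.738, and it was 0.665 for any difference among the groups. AF over GF was -0.057 (-0.84 to 0.73). Leaving out 1 library at a time, the change stayed below 0, between -1.40 and -0.64 for AF over SPF and between -1.21 and -0.66 for GF over SPF. With no filter on low counts edgeR called Socs3 in AF versus SPF (adjusted p = 0.0315), and then called 804 of 22763 genes.

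Socs1 was scarce, with 39 and 23 counts in AF, 47 and 67 in GF, and 73 and 62 in SPF. These were 3.06 and 1.37 CPM in AF, 1.71 and 4.55 CPM in GF, and 3.34 and 4.25 CPM in SPF. Both AF libraries lay below the SPF libraries, while the GF libraries spanned nearly the whole range. Its log2 fold change was -0.78 (95% interval -2.36 to 0.80) for AF over SPF, -0.49 (-2.07 to 1.09) for AF over GF and -0.29 (-1.84 to 1.26) for GF over SPF. Each interval spans both directions. Leaving out GF replicate 1 turned GF over SPF to 0.26, and leaving out GF replicate 3 turned AF over GF to 0.36. GF replicate 3, highest in Socs1, was also highest in summed T cell and intraepithelial lymphocyte markers (all 15 detected, 409.7 CPM), and AF replicate 3 was lowest in both (14 of 15 detected, 16.7 CPM). Between these ends the orders differed. SPF replicate 4 had more Socs1 than SPF replicate 3 at a lower marker sum (95.7 against 254 CPM). AF replicate 2 had more Socs1 than GF replicate 1, also at a lower sum (25.2 against 44.0 CPM). The defining markers Ptprc, Cd3e, Cd8a and Gzma were above 0 in every library, and their part in the result was not tested.

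**Figure D3:**
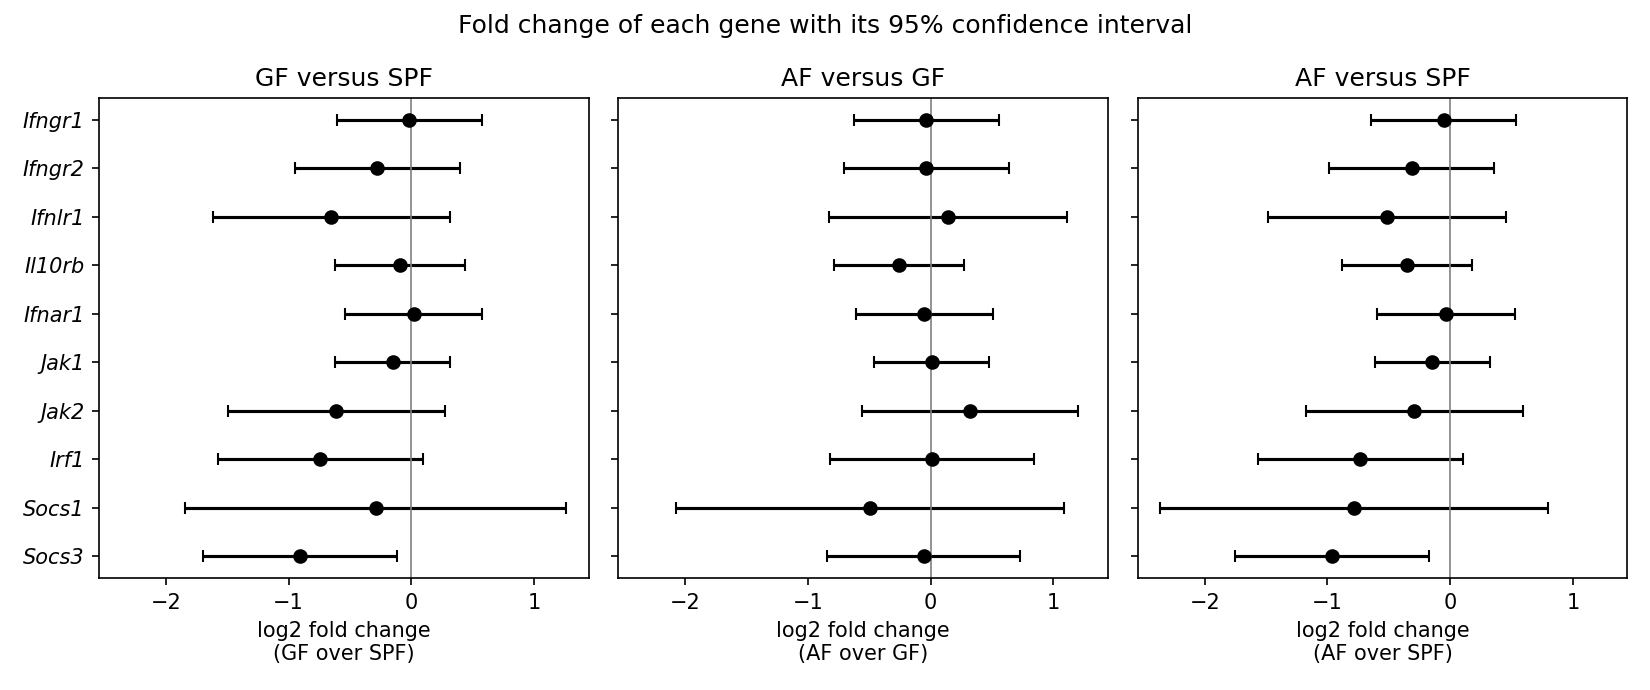
Log2 fold change of each gene with its 95% confidence interval in 3 panels, GF over SPF, AF over GF and AF over SPF from left to right (horizontal axes, log2, with a vertical line at no change). Only the intervals of Socs3 in the comparisons with SPF exclude 0, before adjustment over all genes.

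Counted together, both GF libraries lay below both SPF libraries for 3 of the 10 genes (Jak1, Irf1 and Socs3), against 17.1% of all genes. Both AF libraries lay below both GF libraries for 1 (Il10rb), against 17.8%, and below both SPF libraries for 5 (Il10rb, Jak1, Irf1, Socs1 and Socs3), against 22.6%. In the higher direction the count was 0 of 10 in each comparison, against 16.8% of all genes in GF versus SPF, 15.8% in AF versus GF and 22% in AF versus SPF. Both SPF libraries lay above the 4 others for Jak1, Irf1 and Socs3, against 11.8% of all genes.

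Around the 10 genes, none of the 14 interferon ligands listed passed the filter on low counts. Ifng had 4 counts in GF replicate 3, 1 in SPF replicate 3 and 0 in the 4 others. Ifnl2 had 10 and Ifnl3 4 counts in SPF replicate 3, each had 1 in GF replicate 3, and both were at 0 in the other libraries. Ifnz, a type I interferon gene, had 1 count in GF replicate 1 and 0 in the others. These 2 lambda interferon genes are near-identical, so their split is uncertain. Ifnb1, of type I interferon, was at 0 counts in all 6 libraries, as were Il6, Il10 and Il22, ligands upstream of Stat3 and Socs3. Other listed ligands of that kind had counts. Lif was at 2.69 ± 0.142 CPM in AF, 3.29 ± 0.628 CPM in GF and 4.28 ± 0.0371 CPM in SPF. Il11 was at means of 0.641, 0.324 and 0.400 CPM in that order, and Osm at 0, 0.0182 and 0.0229 CPM.

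Of the other receptor chains of the interferon and IL-10 family 3 of 6 were tested, and of the gp130 receptors and ligands 4 of 13. None passed the test in any comparison, also not by DESeq2, edgeR's likelihood ratio test or limma. Below an unadjusted p of 0.05 were only Il22ra1 and Il6st, in AF versus SPF (11.3% of all genes). Il22ra1, which pairs with Il10rb to bind IL-22, had 26.6 and 20.7 CPM in AF, 28.8 and 35.2 CPM in GF, and 40.5 and 59.5 CPM in SPF. The 3 groups did not overlap, and its log2 fold change was -1.08 (SE 0.27) for AF over SPF (edgeR adjusted p = 0.381). Il6st, the gp130 chain whose signalling Socs3 restrains, had 7.78 and 8.79 CPM in AF, 11.6 and 9.57 CPM in GF, and 15.4 and 15.5 CPM in SPF. It was likewise apart in all 3 groups, with -0.90 (SE 0.24) for AF over SPF (edgeR adjusted p = 0.381). Il11ra1, the IL-11 receptor, ran the other way, at 36.8 and 30.2 CPM in AF, 16.8 and 30.5 CPM in GF, and 16.1 and 24.8 CPM in SPF. Il6ra, the IL-6 receptor, also had its lowest mean in SPF. It was at 2.75 ± 1.23 CPM in AF, 2.72 ± 1.63 CPM in GF and 0.595 ± 0.842 CPM in SPF. Il20rb, of the IL-20 receptors, was at 1.51 to 4.18 CPM over the 6 libraries, with the lowest and the highest value both in SPF.

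Of the other JAK and STAT genes, 8 were listed, 7 were tested and 0 passed by any of these tools. Below an unadjusted p of 0.05 were 1 in GF versus SPF (6.71% of all genes), 0 in AF versus GF (3.6%) and 1 in AF versus SPF (11.3%), both lower. Their median log2 fold change was -0.24 in GF versus SPF, -0.034 in AF versus GF and -0.074 in AF versus SPF. In the fits with 1 library left out these medians moved, to 0.12 in GF versus SPF without SPF replicate 4, 0.20 in AF versus GF without GF replicate 3 and -0.49 in AF versus SPF without AF replicate 2. The fits without SPF replicate 4 and without AF replicate 2 tested 8 genes, since the filter on low counts was redone. Without AF replicate 2 the median in GF versus SPF was -0.11, though neither of those groups had changed. Stat3, which Socs3 restrains and which is known to induce Socs3, had 79.2 and 62.7 CPM in AF, 58.8 and 85.8 CPM in GF, and 112 and 159 CPM in SPF. Both SPF libraries were above the 4 others, with a log2 fold change of -0.93 (SE 0.31) in AF over SPF (edgeR adjusted p = 0.389). Stat2, the ISGF3 subunit, had 164 and 129 CPM in AF, 71.7 and 157 CPM in GF, and 159 and 289 CPM in SPF. The AF and SPF libraries overlapped in Stat2, and its log2 fold change in GF over SPF was -0.97 (SE 0.47, edgeR adjusted p = 0.738). Tyk2, the kinase that pairs with Jak1 on the type I and type III receptors, overlapped between groups, at 58.0 and 53.4 CPM in AF, 48.3 and 70.3 CPM in GF, and 48.1 and 67.6 CPM in SPF.

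Of the other IRF genes and their cofactors, 10 of 11 were tested and 0 passed with edgeR's quasi-likelihood test. The likelihood ratio test and DESeq2 called 298 and 272 of 13644 genes in AF versus SPF, and of this list each called 1, lower. The medians were -0.12 in GF versus SPF, 0.16 in AF versus GF and -0.065 in AF versus SPF. The median in AF versus SPF was 0.21 without SPF replicate 4, 0.056 without AF replicate 3, -0.15 without AF replicate 2 and -0.36 without SPF replicate 3. In GF versus SPF it was -0.24 without GF replicate 3 and -0.23 without SPF replicate 3, and in AF versus GF 0.011 without AF replicate 3, 0.037 without GF replicate 1 and 0.071 without GF replicate 3. With library totals alone it was 0.037 in GF versus SPF and -0.20 in AF versus GF. Irf8, known as a factor of myeloid and B cells, had 43.4 and 31.5 CPM in AF, 47.4 and 70.2 CPM in GF, and 82.9 and 105 CPM in SPF, with -1.33 (SE 0.30) for AF over SPF (edgeR adjusted p = 0.360). The 3 groups did not overlap in it. Summed myeloid markers, 6 to 9 of 9 detected, were at 5.81 and 6.00 CPM in AF, 10.8 and 14.9 CPM in GF, and 14.4 and 8.50 CPM in SPF, with Cd68 and Csf1r above 0 in every library, and their part in this was not tested. Irf2bp2, an Irf2 cofactor, was at 46.2 and 54.3 CPM in AF, 31.6 and 41.6 CPM in GF, and 36.7 and 44.4 CPM in SPF, both AF libraries above the 4 others.

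All 19 other inhibitors listed, from the SOCS, PIAS and phosphatase families with Usp18 and the ubiquitin ligase parts that SOCS proteins use, were tested, and 0 passed by any of these tools. Below an unadjusted p of 0.05 were 1 in GF versus SPF (6.71% of all genes), lower, and 1 in AF versus SPF (11.3%), higher. They had medians of -0.029 in GF versus SPF, 0.023 in AF versus GF and -0.048 in AF versus SPF, so as a list they lay at the level of all genes, and each median changed sign when some single libraries were left out. Usp18, a brake on type I signalling, had 38.4 and 29.2 CPM in AF, 8.20 and 27.7 CPM in GF, and 45.8 and 77.5 CPM in SPF. Ptpn6, the phosphatase SHP-1, was at 45.4 and 44.9 CPM in AF, 28.7 and 44.1 CPM in GF, and 25.5 and 27.8 CPM in SPF, highest in AF. Its log2 fold change was 0.76 (SE 0.25) for AF over SPF (edgeR adjusted p = 0.389).

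Downstream of the receptors, most listed target genes were lower in AF and in GF than in SPF, again with 0 past edgeR's quasi-likelihood test. Of 17 tested genes known to be induced by interferon gamma, 17 were lower in GF than in SPF (median -0.88), against 48.1% of all genes. In AF versus SPF 17 were lower (median -1.05), against 49.1% of all genes. Leaving out GF replicate 1 gave a median of -0.55 in GF versus SPF, and leaving out GF replicate 3 gave -1.50. In AF versus GF, 14 were lower (median -0.38), against 52.9% of all genes. The list's median there was 0.22 once GF replicate 3 was left out, -0.81 once GF replicate 1 was and -0.23 once AF replicate 3 was. The fits without GF replicate 3 or AF replicate 3 tested 18 genes of the list. At an unadjusted p below 0.05, 7 were lower in GF versus SPF (6.71% of all genes in either direction), 10 in AF versus SPF (11.3%) and 1 in AF versus GF (3.6%). DESeq2 called 1, 3 and 1 of the 17 in that order, and 80, 272 and 51 of all genes. The likelihood ratio test of edgeR called 1, 3 and 0 of the 17, and 97, 298 and 53 of all genes. Their range was wide: Parp9 had 54.3 and 52.3 CPM in AF, 54.3 and 66.3 CPM in GF, and 92.6 and 119.9 CPM in SPF, and Ciita, the class II transactivator, 0.471 and 0.654 CPM in AF, 1.97 and 7.67 CPM in GF, and 8.66 and 13.7 CPM in SPF. GF replicate 3, the GF library with more Ciita, was also the one with the higher T cell marker sum, whose part in this was not tested.

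Targets of ISGF3, the complex beneath the type I and lambda receptors, had a different order of groups by median fold change. All 18 were tested. In GF versus SPF 18 were lower (median -1.48), against 48.1% of all genes. In AF versus GF 16 were higher (median 0.60), against 6429 of 13644 genes. In AF versus SPF 17 were lower (median -0.77), against 49.1%. Below an unadjusted p of 0.05 were 16 targets in GF versus SPF (6.71% of all genes) and 6 in AF versus SPF (11.3%), all lower. In AF versus GF 4 were (3.6%), all higher. Of all genes, the likelihood ratio test called 97 in GF versus SPF, 298 in AF versus SPF and 53 in AF versus GF. DESeq2 called 80, 272 and 51 in that order. Of the 18 targets, each called 4 in GF versus SPF, 2 in AF versus SPF and 0 in AF versus GF. With no filter on low counts, edgeR's quasi-likelihood test called 14 lower in GF versus SPF, 6 lower in AF versus SPF and 4 higher in AF versus GF, where it called 484, 804 and 264 of 22763 genes. Without GF replicate 1 the median was -0.96 in GF versus SPF and 0.28 in AF versus GF. In AF versus GF it was 1.23 without GF replicate 3, and in AF versus SPF it was -0.44 without SPF replicate 4. The AF versus GF median was 0.35 with library totals alone and 0.20 with limma on log2(TPM + 1), where 13 were higher and 5 lower. The summed level was 1131 and 932 CPM in AF, 445 and 940 CPM in GF, and 1218 and 1957 CPM in SPF. AF and GF thus overlapped in the sum, with GF replicate 1 lowest. Ifi44 had 2.67 and 3.39 CPM in AF, 1.42 and 2.92 CPM in GF, and 14.6 and 12.3 CPM in SPF, and Ifit2 had 1.34 and 1.96 CPM in AF, 1.09 and 1.29 CPM in GF, and 3.57 and 6.04 CPM in SPF. Of the receptor chains for this complex, Ifnlr1, Ifnar1 and Ifnar2 overlapped between AF and GF, and Il10rb was lower in both AF libraries than in both GF libraries.

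Genes known as Stat3 targets, as Socs3 itself is, were tested for 11 of 14 genes, of which 0 passed with edgeR's quasi-likelihood test. In GF versus SPF 9 of 11 were lower (median -0.87), against 48.1% of all genes. In AF versus GF 6 were lower and 5 higher (median -0.83), against 52.9% of all genes lower. In AF versus SPF 8 were lower (median -0.77), against 49.1%. Of all genes, the likelihood ratio test called 97, 53 and 298 in that order and DESeq2 80, 51 and 272. Of the 11 targets, each called 3, 2 and 5, all lower. The median in AF versus GF was -0.31 without GF replicate 3 and -0.37 without AF replicate 3, and against SPF it reached -1.89 in GF without GF replicate 3 and -1.52 in AF without SPF replicate 4. Each of these fits tested 12 genes of the list, since the filter on low counts was redone. In GF versus SPF the median was -1.26 without AF replicate 2, a library of neither group, also over 12 genes. The part of the added gene in these shifts was not tested. Reg3g, an antibacterial lectin, had 30.9 and 38.4 CPM in AF, 216 and 237 CPM in GF, and 1576 and 686 CPM in SPF. Duox2, an oxidase of the mucosal surface, had 8.01 and 4.99 CPM in AF, 18.7 and 42.0 CPM in GF, and 115 and 74.0 CPM in SPF. Both genes, which were named for their small p, were apart in all 3 groups. Over the list 5 of 11 had both AF libraries below both GF libraries, against 17.8% of all genes. The count with both above was 0, against 15.8%. Both GF libraries lay below both SPF libraries for 6, against 17.1%, and above for 1, Cebpd, against 16.8%. Both AF libraries lay below both SPF libraries for 6, against 22.6%, and above for 0, against 22%. At an unadjusted p below 0.05, 6 were lower and 1, again Cebpd, higher in GF versus SPF (6.71% of all genes). In AF versus GF 4 were lower (3.6%) and in AF versus SPF 6 (11.3%). Of 16 early response and dissociation genes, which can be induced while cells are sorted, 12 were lower in GF than in SPF (median -0.11). In AF 14 were higher than in SPF (median 0.093) and 15 higher than in GF (median 0.24). Both AF libraries lay above both GF libraries for 8, against 15.8% of all genes, and below for 1, against 17.8%. The sums were 3980 and 4445 CPM in AF, 3338 and 3721 CPM in GF, and 3437 and 4157 CPM in SPF. With library totals alone the 3 medians of this list had the opposite sign, at 0.064 in GF versus SPF, -0.070 in AF versus SPF and -0.093 in AF versus GF.

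**Figure D4:**
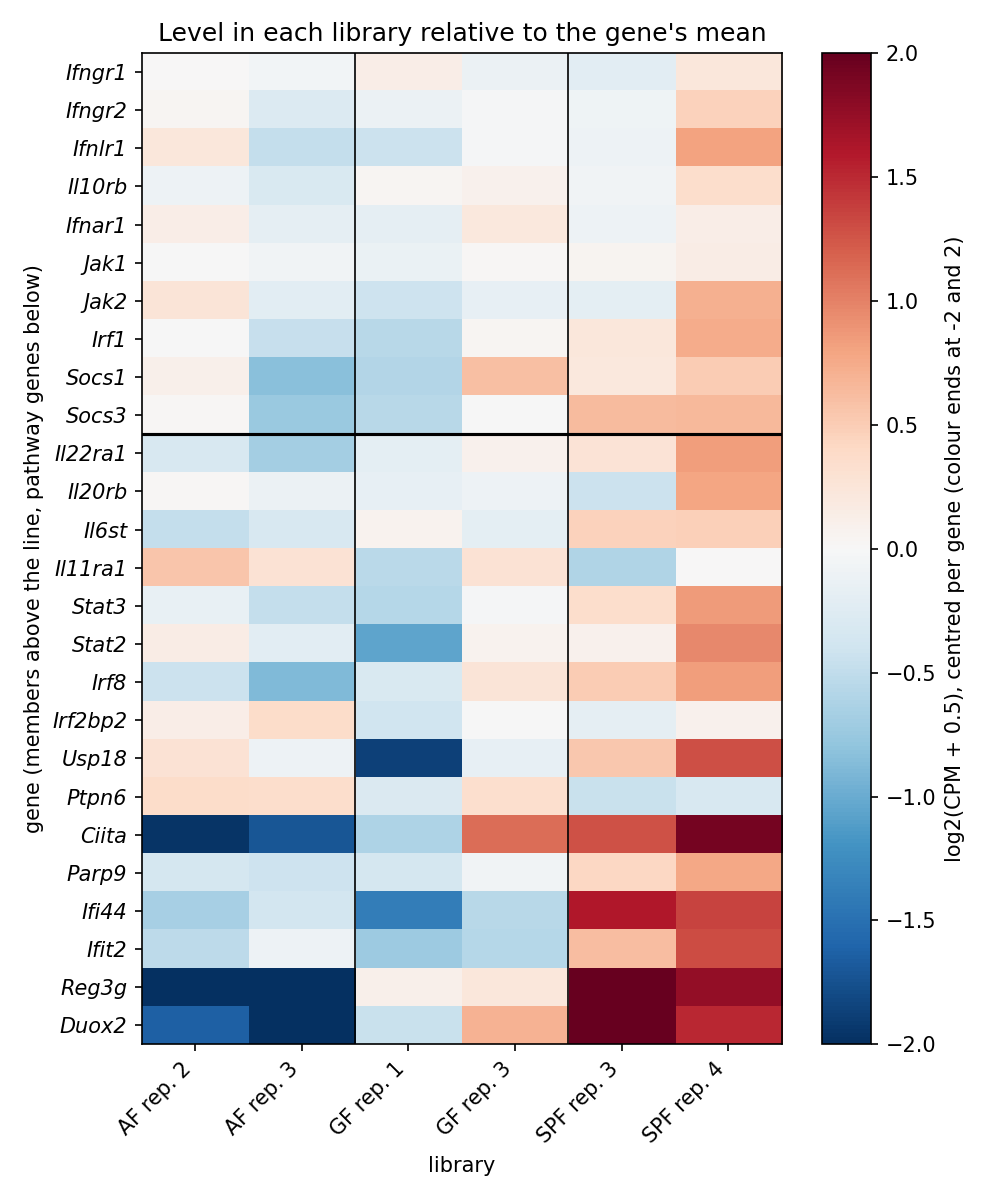
Log2 level of each gene in each library minus the gene's mean over the 6 libraries (log2(CPM + 0.5), colour scale ending at -2 and 2), for the 10 genes above the line and 16 pathway genes below it, with AF, GF and SPF libraries from left to right. The SPF columns are the warmest for Socs3, Irf1 and Stat3, and SPF replicate 4 alone for Ifngr2, Ifnlr1 and Jak2.

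The genes most like Socs3, Irf1 and Socs1 over the 6 libraries were sought for these members, which had the widest ranges of log2 CPM (1.41, 1.31 and 1.66). Likeness was the root mean square difference of centred log2 CPM over 6 libraries, the smallest being the most alike. Left out of the search were the members, genes without a symbol and genes with provisional or clone names, such as those with Gm or Rik. For Socs3 they were Bcl3 (0.104), Tha1 (0.156) and Rnf24 (0.163). Bcl3, which encodes a regulator of NF-kappaB and was also on the Stat3 target list, had 37.6 and 24.2 CPM in AF, 24.4 and 33.2 CPM in GF, and 53.3 and 52.1 CPM in SPF. For Irf1 they were Dync1h1 (0.0520), Ttc22 (0.0776) and Furin (0.0864). Dync1h1, the dynein heavy chain, had 366 and 287 CPM in AF, 257 and 387 CPM in GF, and 415 and 607 CPM in SPF. For Socs1 they were Stk10 (0.182), Arid3a (0.207) and Tnfaip8l2 (0.213), whose values were highest in SPF replicate 4 and lowest in AF replicate 3. The 6 libraries share their differences in depth and cell make-up, so a like pattern is a description only.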

How the data were processed

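RSEM's output was given library by library. The authors deposited expected counts, per the file headers, in which RSEM shares ambiguous reads between genes, and TPM values, which, per the file headers, are divided by effective length and scaled to a fixed total. Per the submitters' processing notes, STAR 2.5.2b, RSEM, edgeR 3.16.5 and GRCm38/mm10 were used. Annotation release, strand setting and read filters: not given in the sources used here. Without the strand setting, reads where genes overlap on opposite strands may have gone to either gene.

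Symbols and 1-based coordinates came from GENCODE M21 (GRCm38), which matched 51633 of 51912 identifiers, the unmatched holding at most 0.0842% of a library's counts. Expected counts were rounded (23.5% of values above 0 were not whole). After filterByExpr and TMM scaling (factors 0.791 to 1.41), edgeR's quasi-likelihood F test (glmQLFit with legacy on, robust off) was fitted to all 6 libraries and 13644 genes, with 3 residual and 3.08 prior degrees of freedom and a common biological coefficient of variation of 0.368. P-values were adjusted by Benjamini-Hochberg over all genes, and a gene was called below 0.05. Standard errors are the absolute log2 fold change over the square root of F, and intervals are at 95%. An exact permutation test of 2 libraries against 2 cannot go below p = 0.333. Libraries of a group differed beyond sampling noise (chi-square per gene 44.6 in AF, 239 in GF and 195 in SPF), and no pair was treated as a duplicate. The test was also run on simulated counts. These had the same spread for every gene and no differences in cell make-up between libraries. They therefore do not show how often the test errs or misses a change in these data.

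The members, the pathway and marker lists and the rules were chosen with earlier results of these data known, and 1 pathway gene is not reported here. Named genes are all members, the 2 genes of each pathway list with the smallest p for any difference, the defining genes of marker lists, and the 3 genes most like each of the 3 members of widest range. Ifnar2, Tyk2, Il6ra, Cebpd, Eif2s3y and Xist were named in addition, after their values were seen, as were the ligands with counts. Alternatives were DESeq2's tests, edgeR's likelihood ratio test and robust fit, other scalings and filters, limma on log2(TPM + 1) and log2(TPM + 0.1), only the 2 groups compared, a threshold of 0.1, and each library left out in turn. DESeq2 1.42.0, limma 3.58.1 and edgeR 4.0.16 were run in R 4.3.3, with version 1.17.8 of the data.table package. Promoters are RefSeq's, from the start-site table of GRCm38.p6.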

Additional observations from a re-analysis of the deposited data

How the results depend on the processing

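The count of called members was 0 in every test run under the alternatives other than the lack of a filter on low counts. The test for any difference was not run with only the 2 groups compared. Without that filter edgeR called 1, Socs3, in AF versus SPF (log2 fold change -0.99) and 1, again Socs3, for any difference among the 3 groups. That setting tests 22763 genes in place of 13644 and re-estimates the spread. Counts over all genes moved more: GF versus SPF gave 2 calls, and 80 with DESeq2, 97 with the likelihood ratio test and 484 without the filter. AF versus GF gave 2, 51, 53 and 264, and AF versus SPF 6, 272, 298 and 804.

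Small changes turned sign, and the cause was not tested. In GF versus SPF, Ifngr1 was 0.20 with library totals alone, 0.041 with limma on log2(TPM + 1), 0.040 with log2(TPM + 0.1) and 0.016 with only those groups, and Il10rb was 0.084 with library totals alone. In AF versus GF, with library totals alone, log2(TPM + 1) and log2(TPM + 0.1) in that order, Ifnlr1 was -0.21, -0.26 and -0.32, Jak1 -0.33, -0.43 and -0.46, Jak2 -0.030, -0.12 and -0.13, and Irf1 -0.30, -0.45 and -0.46. Jak1 was -0.0019 without the 20 most abundant genes, and without the low-count filter Jak1 was -0.0094 and Irf1 -0.0075. Library totals alone moved the median of all genes to 0.16 in GF versus SPF, -0.38 in AF versus GF and -0.20 in AF versus SPF. The shifts of the members are of that size.

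Leaving out 1 library at a time turned the sign of 26 fold changes and kept that of 154. In GF versus SPF the ranges were -0.23 to 0.21 for Ifngr1, -0.53 to 0.019 for Ifngr2, -0.29 to 0.12 for Il10rb, -0.19 to 0.20 for Ifnar1 and -1.15 to 0.26 for Socs1. In AF versus GF they were -0.15 to 0.099 for Ifngr1, -0.20 to 0.092 for Ifngr2, -0.26 to 0.44 for Ifnlr1, -0.23 to 0.16 for Ifnar1, -0.072 to 0.096 for Jak1, -0.26 to 0.34 for Irf1, -1.18 to 0.36 for Socs1 and -0.50 to 0.26 for Socs3. In AF versus SPF they were -0.26 to 0.18 for Ifngr1, -0.92 to 0.0084 for Ifnlr1, -0.20 to 0.098 for Ifnar1 and -0.68 to 0.24 for Jak2. A group with a library left out has 1, which is assumed to vary like the other groups. The filter on low counts was redone in each of these fits, so the genes tested in a list could change. Jak1, Irf1 and Socs3 were below 0 against SPF, in AF and in GF, in all of these fits. Of the pathway lists, without SPF replicate 3 edgeR called in AF versus SPF 3 Stat3 targets, 1 interferon gamma-induced gene, 1 ISGF3 target and 1 receptor chain, among 625 of 14311 genes called, and in GF versus SPF 1 Stat3 and 2 ISGF3 targets, among 369. Without SPF replicate 4 it called 2 Stat3 targets in AF versus SPF, among 13 genes. With no filter on low counts it called 5 Stat3 targets, 3 interferon gamma-induced genes and 1 inhibitor in GF versus SPF, 3 Stat3 targets and 2 interferon gamma-induced genes in AF versus GF, and 5 Stat3 targets, 8 interferon gamma-induced genes, 1 IRF gene and 1 receptor chain in AF versus SPF (all lower), beside ISGF3 targets.

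No paired analysis was possible because each 2 groups share only 1 replicate number. Depth limits Socs1, at 23 to 73 counts, and the interferon ligands, at 0 to 10.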
